A study of Mus musculus with 19 samples.

Results

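MERVL is the internal, protein-coding region of a class III mouse endogenous retrovirus, and MT2_Mm is the long terminal repeat (LTR) that flanks it. Both were taken as the rows of the retrotransposon table whose name before the first slash is exactly MERVL or MT2_Mm, which gives 2 of the 259 subfamilies measured in each of 19 mRNA-seq libraries. Each library was made from spermatogonia sorted as EpCAM-positive cells from mouse testes at postnatal day 7, before meiotic germ cells become abundant. The mice came from a *Dnmt3l* and a *Pld6* mutant line, both backcrossed to C57BL/6J. The groups were *Dnmt3l*+/+ wild-type (WT, n = 2), *Dnmt3l* heterozygous (n = 3), *Dnmt3l* KO (n = 3), *Pld6* WT (n = 3), *Pld6* heterozygous (n = 3) and *Pld6* KO (n = 5), where KO means homozygous for the mutant allele. The tables analysed here hold retrotransposons and no genes, so neither the spermatogonial identity of the cells nor the loss of *Dnmt3l* or *Pld6* transcripts could be checked.

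A MERVL provirus carries gag and pol genes between a pair of MT2_Mm LTRs, and its name refers to the leucine tRNA that primes its reverse transcription. Transcription starts in the 5′ LTR and ends in the 3′ LTR, so an RNA of a full-length copy carries both LTR and internal sequence, whereas solo LTRs, left behind by recombination between the LTRs of a provirus, have no internal region. The family is best known from the cleavage-stage mouse embryo, where the transcription factor DUX activates MT2_Mm at the time of zygotic genome activation and where many MT2_Mm copies act as promoters of host genes. DNMT3L is the catalytically inactive cofactor of the de novo DNA methyltransferases in male germ cells. PLD6, also called MitoPLD, is an outer mitochondrial membrane protein needed for the production of piRNAs, the small RNAs that guide PIWI proteins to retrotransposons.

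Both members were well above the lower end of the table in every library. MERVL lay between 34.73 and 91.84 RPM, reads scaled to a fixed number of mapped reads, with a median of 61.32 RPM, and ranked between 9 and 26 of the 259 subfamilies by RPM. MT2_Mm lay between 9.46 and 24.55 RPM, with a median of 15.91 RPM, and ranked between 26 and 42. RPM is not divided by the length of the consensus sequence, so the higher RPM of MERVL does not say that more RNA molecules carry it. The summed RPM of MERVL and MT2_Mm made up between 96.9% and 100% of the RPM of the ERVL family, of which the files hold 2 further subfamilies. MT2C_Mm, an LTR related to MT2_Mm, reached at most 3.30 RPM, and RLTR35B_MM was listed at 0 in all 19 libraries.

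On the deposited RPM scale, the levels of MERVL were highest in *Dnmt3l* KO spermatogonia. MERVL was at 43.98 and 61.32 RPM in the *Dnmt3l* WT libraries, at 51.90, 51.40 and 47.04 RPM in the heterozygous libraries and at 79.08, 83.25 and 91.84 RPM in the KO libraries. All 3 KO libraries were above all 5 WT and heterozygous libraries of the line, an arrangement that 59.6% of the 114 tested subfamilies shared. In the *Pld6* line, MERVL was at 45.81, 68.53 and 67.41 RPM in WT, at 50.87, 76.16 and 42.35 RPM in heterozygous and at 53.31, 76.08, 69.28, 34.73 and 72.87 RPM in KO spermatogonia. The lowest of all 19 values was thus in a *Pld6* KO library, replicate 4, and the 3 groups of this line overlapped.

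MT2_Mm was likewise highest in *Dnmt3l* KO spermatogonia on this scale. It was at 13.34 and 14.11 RPM in *Dnmt3l* WT, at 10.37, 14.27 and 13.50 RPM in heterozygous and at 24.55, 21.09 and 20.90 RPM in KO spermatogonia. The 3 *Dnmt3l* KO values were again above the 5 other values of the line, as for 59.6% of the 114 tested subfamilies. In the *Pld6* line MT2_Mm was at 14.74, 16.84 and 16.27 RPM in WT, at 9.46, 17.78 and 13.27 RPM in heterozygous and at 15.31, 22.77, 19.12, 15.91 and 21.61 RPM in KO spermatogonia. Here 3 of the 5 KO libraries were above all 3 WT libraries and the others lay within the WT range.

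**Figure D1:**
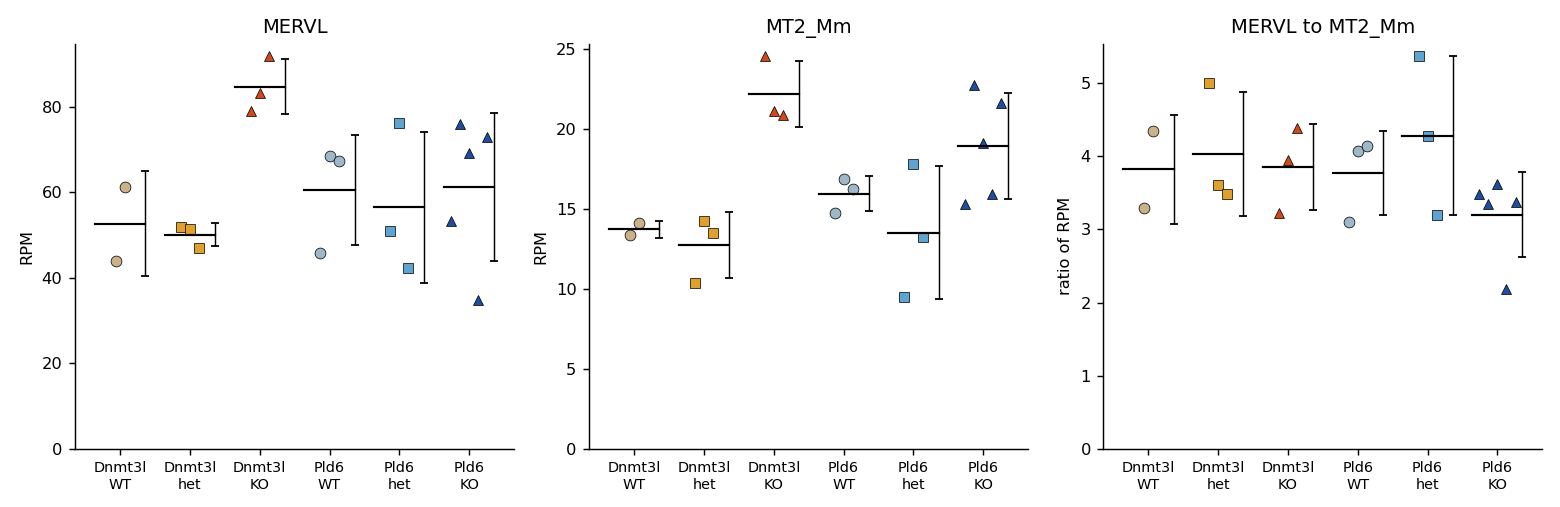
RPM of MERVL (left) and MT2_Mm (middle) and the ratio of MERVL to MT2_Mm RPM (right, no unit) in the 19 libraries, by genotype. Points are libraries, horizontal lines are group means and vertical bars are 1 SD. The *Dnmt3l* KO libraries hold the 3 highest MERVL values, from 79.08 to 91.84 RPM, while the ratio overlaps between all 6 groups.

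Ordered by group mean of the deposited RPM, MERVL ran from 84.7 ± 6.51 RPM (SD, n = 3) in *Dnmt3l* KO through 61.3 ± 17.2 RPM (n = 5) in *Pld6* KO, 60.6 ± 12.8 RPM (n = 3) in *Pld6* WT, 56.5 ± 17.6 RPM (n = 3) in *Pld6* heterozygous and 52.7 ± 12.3 RPM (n = 2) in *Dnmt3l* WT to 50.1 ± 2.67 RPM (n = 3) in *Dnmt3l* heterozygous spermatogonia. Of neighbours in that order, only the first and second groups had ranges that did not overlap, as was so for 31.6% of the 114 subfamilies. For MT2_Mm the order of the means was 22.2 ± 2.05 RPM (n = 3) in *Dnmt3l* KO, 18.9 ± 3.32 RPM (n = 5) in *Pld6* KO, 16.0 ± 1.09 RPM (n = 3) in *Pld6* WT, 13.7 ± 0.544 RPM (n = 2) in *Dnmt3l* WT, 13.5 ± 4.16 RPM (n = 3) in *Pld6* heterozygous and 12.7 ± 2.07 RPM (n = 3) in *Dnmt3l* heterozygous spermatogonia. Of these neighbours, only *Pld6* WT and *Dnmt3l* WT had ranges that did not overlap, as was so in this direction for 4.39% of the 114 subfamilies. The order depended on the scale, since after the rescaling by median ratios described with the next comparison the MERVL means were 73.5 in *Pld6* heterozygous, 72.3 in *Pld6* WT and 62.3 in *Dnmt3l* KO spermatogonia.

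To ask whether loss of DNMT3L changed the pair, KO was compared with WT of the same line in a limma model of log2(RPM + 1) over the 114 subfamilies with at least 1 RPM in at least 2 libraries. On the deposited RPM scale, where 38.6% of the 114 subfamilies were called higher, MT2_Mm was higher in *Dnmt3l* KO spermatogonia. The ratio of its group means was 1.62, single KO libraries were 1.52-fold to 1.79-fold the WT mean, and the difference on the log2(RPM + 1) scale was 0.65 with an SE of 0.23 and a 95% interval from 0.17 to 1.13 (limma, Benjamini-Hochberg adjusted p = 0.029). MERVL differed by a like amount but did not pass the adjusted threshold of 0.05. The ratio of its means was 1.61, single KO libraries were 1.5-fold to 1.74-fold the WT mean, and the difference was 0.69 with an SE of 0.30 and an interval from 0.07 to 1.32 (limma, adjusted p = 0.072, unadjusted p = 0.031). In bulk RNA a change in the number of cells that transcribe the element and a change in RNA per cell cannot be told apart.

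These values stand beside a large shift of the whole table. In the same comparison 38.6% of the 114 subfamilies were called higher and 1.75% lower, and 67.5% had all KO libraries above all WT libraries. The median difference of the 114 subfamilies was 0.50 on the log2(RPM + 1) scale. Relative to that median, MERVL was higher by 0.19 and MT2_Mm by 0.15, and by size of difference they ranked 44 and 47 of 114. Among the 62 subfamilies with a mean of at least 5 RPM, MERVL was at -0.05 and MT2_Mm at -0.09 relative to their median. The summed RPM of the pair made up 1.81% of all retrotransposon RPM in *Dnmt3l* WT, 1.61% in heterozygous and 0.802% in KO spermatogonia, since the total of the 259 subfamilies was between 12659 and 14603 RPM in KO and between 3382 and 4413 RPM in the other 5 libraries of the line.

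The call of MT2_Mm and the size of both differences depended on the scale. When each library was divided by its median ratio to the other libraries over the 33 subfamilies with at least 5 RPM in every library, the median of the 114 differences went from 0.50 to -0.02, and the difference between *Dnmt3l* KO and WT went to 0.03 for MERVL and 0.02 for MT2_Mm (limma, adjusted p = 0.959 for both). On this scale MERVL was at 52.3 to 70.3 in WT and at 55.9 to 67.2 in KO libraries, and MT2_Mm was at 15.9 to 16.2 in WT and at 14.5 to 17.4 in KO libraries, so that the groups overlapped for both. A second rescaling used 19 of those subfamilies, leaving out IAP, L1, MMERGLN, MMERVK10 and RLTR10. MERVL and MT2_Mm are themselves among both the 33 and the 19 subfamilies, so neither scale is independent of the members. The second rescaling gave a median of 0.18 and differences of 0.29 for MERVL (limma, adjusted p = 0.508) and 0.26 for MT2_Mm (adjusted p = 0.336). On this second scale MT2_Mm was at 14.1 and 14.8 in WT, at 11.5 to 15.8 in heterozygous and at 17.3 to 17.9 in KO libraries, so that all 3 KO libraries stayed above the 5 others, as did those of 31.6% of the subfamilies, whereas for MERVL the groups overlapped.

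Single libraries and the choice of controls also moved these calls. The call of MT2_Mm also ended without *Dnmt3l* WT replicate 1 (difference 0.61, limma, adjusted p = 0.141), without WT replicate 2 (0.69, adjusted p = 0.095) or without KO replicate 1 (0.58, adjusted p = 0.088). MERVL was at 0.46 without *Dnmt3l* WT replicate 1 (adjusted p = 0.40) and at 0.93 without WT replicate 2 (adjusted p = 0.074). It passed without *Pld6* heterozygous replicate 2 (0.69, adjusted p = 0.047), without *Pld6* KO replicate 4 (0.69, adjusted p = 0.028) and against the heterozygous libraries of its line (difference 0.74, adjusted p = 0.025), a setting in which 53 of the 114 subfamilies were called higher in place of 44.

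**Figure D2:**
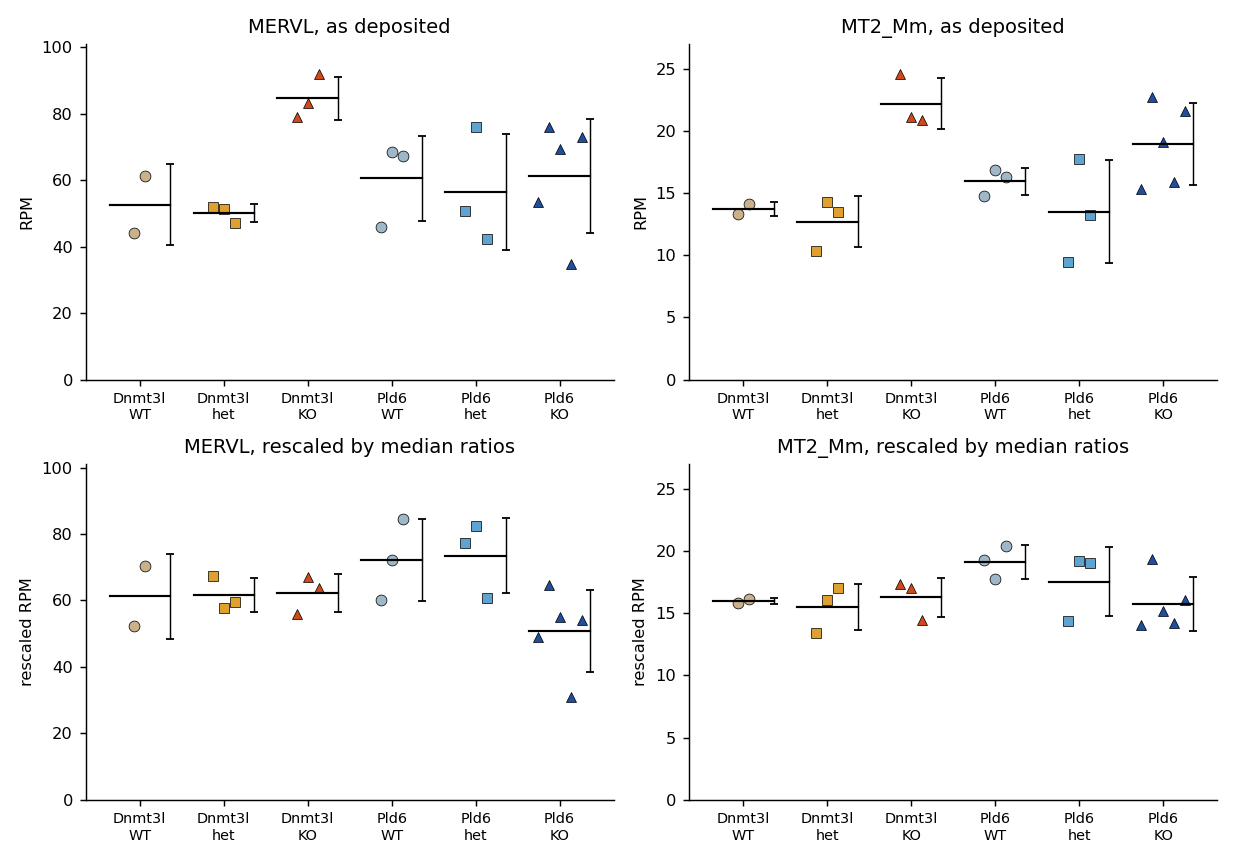
RPM of MERVL (left column) and MT2_Mm (right column) by genotype as deposited (top) and after rescaling by median ratios (bottom). Points are libraries, lines are group means and bars are 1 SD. The *Dnmt3l* KO libraries stand above their controls only in the top row, and after rescaling the mean of MERVL in *Pld6* KO, 50.8, is below that in *Pld6* WT, 72.3.

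Loss of PLD6 was compared with WT in the same way, and neither member passed the test. The difference of MERVL between *Pld6* KO and WT was -0.01 with an SE of 0.24 and an interval from -0.51 to 0.48 (limma, adjusted p = 0.952). The difference of MT2_Mm was 0.22 with an SE of 0.18 and an interval from -0.16 to 0.60 (limma, adjusted p = 0.448). The ratios of the means were 1.01 for MERVL and 1.19 for MT2_Mm, and single KO libraries ran from 0.573-fold to 1.26-fold the WT mean for MERVL and from 0.960-fold to 1.43-fold for MT2_Mm. In this comparison 30.7% of the 114 subfamilies were called higher and 0% lower, 35.1% had all KO libraries above all WT libraries, and the median difference was 0.26. After rescaling, that median was -0.14 and MERVL was lower in *Pld6* KO by 0.53 on the log2 scale, which passed the test (limma, adjusted p = 0.040) as 1 of 16 subfamilies called lower on that scale, whereas MT2_Mm was at -0.27 and did not (adjusted p = 0.142). Under the second rescaling, where the median was 0.07 and 3 subfamilies were called lower, MERVL was at -0.23 (limma, adjusted p = 0.463) and MT2_Mm at 0.01 (adjusted p = 0.949). Against the heterozygous libraries of the line, MT2_Mm was higher by 0.48 in *Pld6* KO and passed (limma, adjusted p = 0.038), with 52 of the 114 subfamilies called higher and MT2_Mm at -0.01 relative to their median. Without *Pld6* KO replicate 4 the difference of MERVL on the deposited scale was 0.17 (limma, adjusted p = 0.552). The pair made up 3.14% of the retrotransposon RPM in *Pld6* WT, 3.06% in heterozygous and 1.03% in KO spermatogonia.

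The mutants were also compared with each other. The difference between the *Dnmt3l* KO effect and the *Pld6* KO effect, each against its own WT, was 0.71 for MERVL with an SE of 0.38 (limma, adjusted p = 0.230) and 0.43 for MT2_Mm with an SE of 0.29 (limma, adjusted p = 0.379). Neither passed, in a test in which 7.89% of the subfamilies were called with a larger and 4.39% with a smaller effect in *Dnmt3l* KO. The median of this difference over all tested subfamilies was 0.25. On the deposited scale the 3 *Dnmt3l* KO libraries held the 3 highest values of MERVL, and every one of them exceeded the 5 *Pld6* KO libraries, which was so for 31.6% of the subfamilies. After rescaling by median ratios MERVL was at 55.9 to 67.2 in *Dnmt3l* KO and at 31.0 to 64.7 in *Pld6* KO, so that the groups overlapped. The direct difference between the KO groups, with 24.6% of the subfamilies called higher and 7.02% lower in *Dnmt3l* KO, was 0.51 for MERVL (SE 0.24, limma, adjusted p = 0.115) and 0.23 for MT2_Mm (SE 0.18, limma, adjusted p = 0.313). The median direct difference of all tested subfamilies was 0.38.

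No difference between heterozygous and WT spermatogonia passed the test in either line. In *Dnmt3l* heterozygous spermatogonia the difference was -0.05 for MERVL, with an interval from -0.67 to 0.57, and -0.11 for MT2_Mm, with an interval from -0.59 to 0.37. In *Pld6* heterozygous spermatogonia it was -0.12 for MERVL, with an interval from -0.68 to 0.44, and -0.26 for MT2_Mm, with an interval from -0.69 to 0.17. Replicate 1 of this group stood apart in listing 159 of the 259 subfamilies at 0, where the other libraries list 60 to 90, and without it the differences were -0.07 for MERVL and -0.05 for MT2_Mm (limma, adjusted p = 0.991 for both) and -0.02 for the log2 ratio of MERVL to MT2_Mm. By limma 0% of the 114 subfamilies were called in either comparison, and at an unadjusted p under 0.05 there were 0 in the *Dnmt3l* line and 5 in the *Pld6* line, neither member among them. The WT groups of the lines differed by -0.20 for each member, *Dnmt3l* minus *Pld6* (limma, adjusted p = 0.991 for both, with 0.877% of the subfamilies called). Although the ranges of MT2_Mm did not overlap between these groups, both *Dnmt3l* WT libraries lying below the 3 *Pld6* WT libraries, 4.39% of the subfamilies were arranged in that way.

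The ratio of MERVL to MT2_Mm RPM was then followed, because a full-length RNA carries both parts and a solo LTR carries one. The ratio was 3.30 and 4.35 in *Dnmt3l* WT, 5.00, 3.60 and 3.48 in heterozygous and 3.22, 3.95 and 4.39 in KO spermatogonia. The 3 groups overlapped, and the KO libraries spanned nearly the same range as the WT libraries. In the *Pld6* line the ratio was 3.11, 4.07 and 4.14 in WT, 5.38, 4.28 and 3.19 in heterozygous and 3.48, 3.34, 3.62, 2.18 and 3.37 in KO spermatogonia. All 5 *Pld6* KO values were below the higher pair of WT values, and replicate 4 was below every other library of the series.

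No difference in the ratio passed a test. With these group sizes, only the *Pld6* KO comparison could reach an unadjusted p under 0.05. None could pass after adjustment over the 5 ratio comparisons, so these tests cannot decide whether the ratio changed. Between *Dnmt3l* KO and WT the mean log2 ratio differed by 0.01 (two-sided exact permutation test, p = 1), with 0.2 the smallest p that 3 against 2 libraries allow. Between *Pld6* KO and WT it differed by -0.25, a factor of 0.842 (exact permutation test, p = 0.179, adjusted over the 5 ratio comparisons 0.893), where the smallest possible p was 0.0357. Without replicate 4 of *Pld6* KO this difference was -0.12 (exact permutation test, p = 0.286). The heterozygous libraries differed from WT by 0.07 in the *Dnmt3l* line and 0.16 in the *Pld6* line, and the WT groups differed from each other by 0.02 (exact permutation tests, p = 0.8, 0.4 and 0.8). The smallest possible p of these tests was 0.2, 0.1 and 0.2. The ratio does not depend on how a library is scaled, so rescaling leaves these values as they are.

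Other retroviral families in the table offer the same internal-to-LTR ratio. ORR1A1-int and ORR1A1, the internal part and LTR of a class III family without retroviral genes of its own, had KO minus WT differences of -0.03 in *Dnmt3l* and 0.09 in *Pld6* on the log2 scale beside a within-group SD of 0.30. For MERVL and MT2_Mm the within-group SD was 0.29. Larger differences were seen for MMERGLN-int and its LTR, a class I family with a glutamine primer, at 2.55 and 1.76 (within-group SD 0.50). For MMETn-int and RLTRETN_Mm, of the MusD and ETn elements, they were 0.95 and 0.69 (SD 0.34), and for MMERVK10C and RLTR10C, of the class II ERVK group, 0.91 and 0.34 (SD 0.25). IAPEz-int and IAPLTR1_Mm, of the intracisternal A particles, were at -0.17 and -0.51 (SD 0.26). These 6 pairs are given as values, and their differences from the MERVL pair were not tested.

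**Figure D3:**
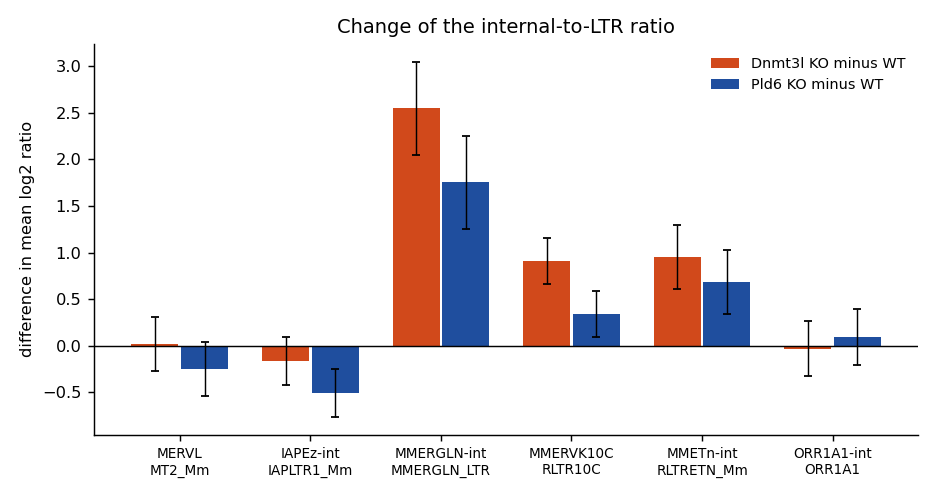
Difference in the mean log2 ratio of internal region to LTR between KO and WT, for 6 pairs (internal region named above its LTR), *Dnmt3l* in red and *Pld6* in blue. Error bars are 1 within-group SD of the log2 ratio over the 19 libraries. The MERVL pair is at 0.01 and -0.25, against 2.55 and 1.76 for MMERGLN.

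Across libraries MERVL and MT2_Mm moved together to a moderate degree. On log2(RPM + 1) values of all 19 libraries, Pearson's r was 0.714 (permutation p = 0.00083) and Spearman's rho was 0.80 (permutation p = 9.0e-05). Without *Dnmt3l* KO replicate 3 and *Pld6* KO replicate 4, the libraries farthest from the median of MERVL, r was 0.800. Within the lines r was 0.856 over the 8 *Dnmt3l* libraries (exact permutation p = 0.012, rho 0.714) and 0.607 over the 11 *Pld6* libraries (permutation p = 0.0446, rho 0.827). After group means were taken away r was 0.592 (permutation p = 0.0483), and without the *Dnmt3l* KO libraries, a choice made after seeing the data, it was 0.601 over 16 libraries (permutation p = 0.0134). The points share a library total, and after rescaling r fell to 0.450 (permutation p = 0.0476, rho 0.432, permutation p = 0.0671).

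**Figure D4:**
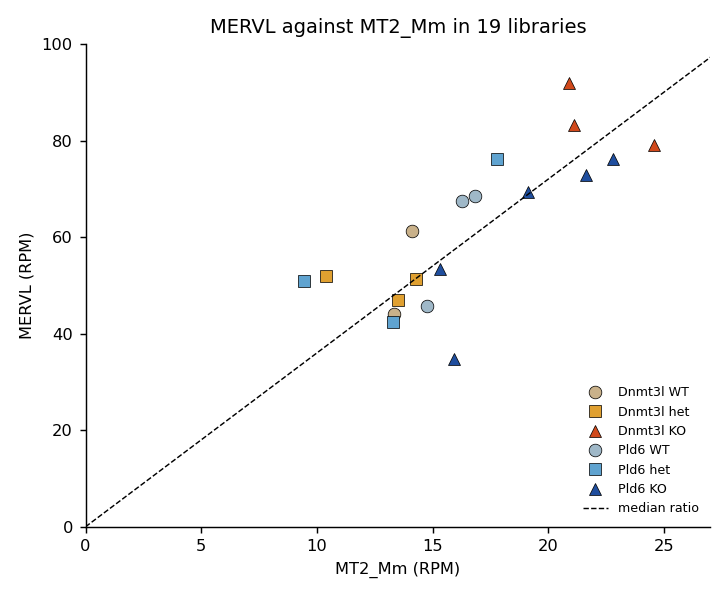
MERVL RPM (vertical axis) against MT2_Mm RPM (horizontal axis) in the 19 libraries, with colour and symbol giving genotype. The dashed line has the median ratio of 3.60. The *Dnmt3l* KO libraries lie at the upper right, and *Pld6* KO replicate 4 lies farthest below the line, at 34.73 RPM of MERVL and 15.91 RPM of MT2_Mm.

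On the deposited RPM scale, neither member had the other as its nearest neighbour in the table. Among the 113 other tested subfamilies, the profile of MERVL over 19 libraries was most like that of MuLV-int (r = 0.812), the internal region of murine leukaemia virus elements, followed by RLTR4_MM-int (0.789), MMERVK9E_I (0.761), RLTR4_Mm (0.728) and IAPEY4_I (0.716), with MT2_Mm at rank 6. MuLV-int was at 35.56 to 37.69 RPM in *Dnmt3l* KO and at 20.55 and 22.77 RPM in *Dnmt3l* WT libraries. In *Pld6* KO it was at 17.10 RPM in replicate 4 and at 28.05 to 32.56 RPM in the other 4 libraries, so that the library lowest in MERVL was also the lowest of its group in MuLV-int. The r of MERVL with MuLV-int was 0.815 for deviations from the group means and 0.651 after rescaling. After rescaling the r of MERVL was 0.38 with RLTR4_MM-int, 0.58 with MMERVK9E_I, 0.24 with RLTR4_Mm, 0.48 with IAPEY4_I and 0.45 with MT2_Mm. MMERVK9E_I was at 1.13 to 1.35 RPM in *Dnmt3l* KO and at most 0.91 RPM in the other groups. It thus passed the filter of 1 RPM in 2 libraries only through *Dnmt3l* KO.

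MT2_Mm was most like L1Md_F3_3end (r = 0.881), a 3′ end of an L1 LINE subfamily, followed by RLTR4_Mm (0.869), ETnERV (0.866), L1Md_F2_3end (0.864) and MT-int (0.853). MERVL came at rank 33. After rescaling, the r of MT2_Mm with these 5 subfamilies lay between 0.05 and 0.42, below its r of 0.45 with MERVL. The 5 were picked on the deposited scale, and the ranking was not repeated after rescaling. With MT2C_Mm the rescaled r of MT2_Mm was 0.50, above that with MERVL. All these correlations are descriptions over libraries that share a total and the group differences.

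Pooled over the groups, MERVL varied more between replicates than its LTR did. The within-group SD on the log2(RPM + 1) scale was 0.35 for MERVL, rank 46 of the 114 subfamilies from the largest, and 0.24 for MT2_Mm, rank 89, beside a median of 0.33. Group by group this did not always hold, since the ratio of highest to lowest RPM was larger for MT2_Mm in *Dnmt3l* heterozygous (1.38 against 1.1), *Dnmt3l* KO (1.17 against 1.16) and *Pld6* heterozygous spermatogonia (1.88 against 1.80). The highest and lowest MERVL value within *Pld6* KO were 76.08 and 34.73 RPM. In the same 5 libraries MTA_Mm, an LTR of the MT family, lay between 52.64 and 60.55 RPM and MTB_Mm between 5.19 and 11.40 RPM. The within-group SD was 0.13 for MTA_Mm, rank 113 of 114, and 0.38 for MTB_Mm. Among other class III subfamilies it was 0.48 for MT2C_Mm, 0.56 for ORR1A0 and 0.354 for ORR1A1, above the 0.347 of MERVL. It was lower for MT-int (0.12) and ORR1A1-int (0.19).

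The class III relatives of MERVL that are described here are MT2C_Mm and 6 members of the MaLR group, elements that lack retroviral genes and of which the MT LTRs are known as promoters in mouse oocytes. All 7 were tested, and by limma 0 of 7 passed in any of the comparisons, where 38.6% of all subfamilies were called higher in *Dnmt3l* KO, 30.7% in *Pld6* KO and 0% in heterozygous spermatogonia. Between *Dnmt3l* KO and WT all 7 differences were above 0, from 0.05 for ORR1A0 to 0.43 for MT2C_Mm, with a median of 0.27 beside 0.50 for all 114 subfamilies and none at an unadjusted p under 0.05. The 3 *Dnmt3l* KO libraries had 60.31 to 66.25 RPM of MTA_Mm and 60.14 to 62.74 RPM of MT-int, against 49.79 and 52.37 RPM of MTA_Mm and 51.09 and 51.10 RPM of MT-int in WT. The groups did not overlap for either, which was so for 67.5% of the subfamilies. The directions depended on the scale, since after rescaling by median ratios 0 of the 7 were above 0, with a median of -0.37, and after the second rescaling 1 of the 7 was, with a median of -0.12. MTA_Mm, MT-int and ORR1A1-int are themselves among the subfamilies that set both scales.

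Between *Pld6* KO and WT 6 of the 7 were above 0, with a median of 0.19 beside 0.26 for all subfamilies. MT-int was the one at an unadjusted p under 0.05, with a difference of 0.31 (limma, adjusted p = 0.067), at 53.60 to 71.86 RPM in KO and 44.70 to 51.61 RPM in WT. MT2C_Mm, the only other ERVL subfamily detected, was at -0.11 in this comparison, at 0.84 to 2.01 RPM in KO and 0.89 to 2.29 RPM in WT. After rescaling by median ratios 0 of the 7 were above 0 here too. ORR1A1-int was then lower in *Pld6* KO, at -0.34 (limma, adjusted p = 0.041), on a scale on which 29 of the 114 subfamilies were called higher and 16 lower. After the second rescaling 3 of the 7 were above 0, with a median of -0.03, and 0 passed.

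**Figure D5:**
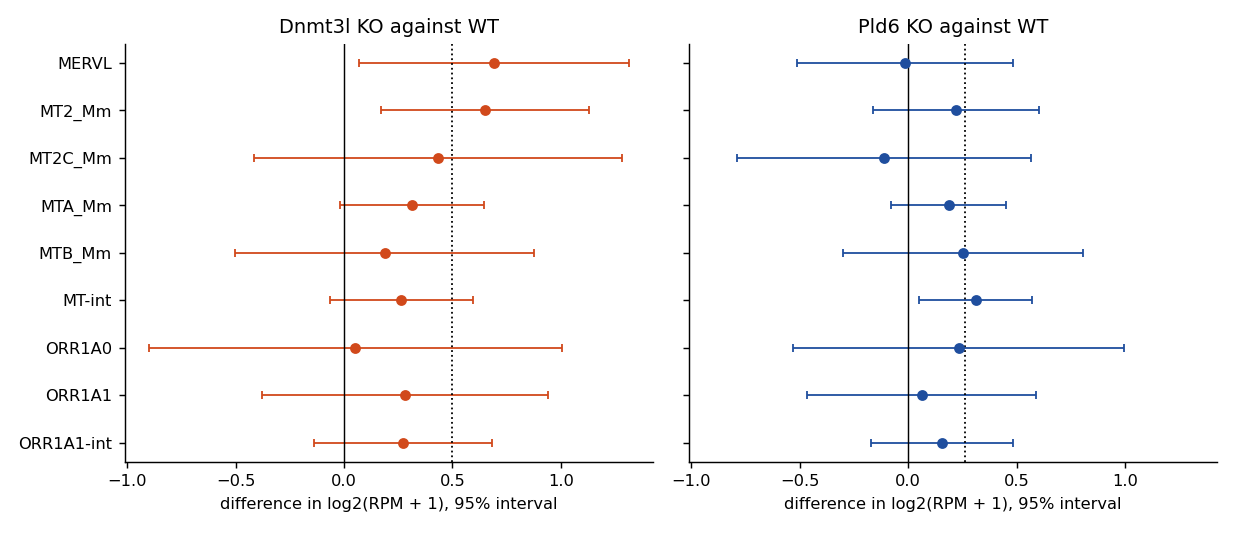
Difference between KO and WT on the log2(RPM + 1) scale for MERVL, MT2_Mm and the 7 other class III subfamilies, with 95% intervals from limma, in *Dnmt3l* (left) and *Pld6* (right). The solid line is 0 and the dotted line the median of all 114 subfamilies, 0.50 and 0.26. In *Dnmt3l* KO, MERVL at 0.69 and MT2_Mm at 0.65 are to the right of the dotted line and the 7 others, at 0.05 to 0.43, to its left.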

How the data were processed

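The authors extracted RNA with Isogen and a DirectZol kit, made directional poly(A) libraries, sequenced 50 bp single-end reads, aligned them with hisat2 to consensus sequences of mouse retrotransposons and deposited RPM values, which are reads scaled to the mapped total. Trim Galore and mm10 appear in the submitters' processing notes. The hisat2 version, the treatment of reads that match several sequences and the reads in the mapped total are not given in the sources used here. Groups follow the sample labels, although the methods text exchanges the numbers of *Dnmt3l* WT and heterozygous mice.

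RPM of 114 subfamilies (at least 1 RPM in at least 2 of 19 libraries) were analysed as log2(RPM + 1) with limma 3.58.1 in R 4.3.3, 6 groups in 1 fit with a mean trend, and Benjamini-Hochberg adjusted p-values over all 114. Calls have adjusted p under 0.05. Log2 ratios were compared by two-sided exact permutation tests, and correlations had 100000 permutations (8 libraries, all orders) in scipy 1.17.1. The model was tested on simulated data. Only 65.8% to 92.8% of low values lay within 0.006 RPM of a common step, so reads were not recovered, depth is unknown and counting intervals are not given. *Pld6* heterozygous replicate 1 lists 159 subfamilies at 0, the others 60 to 90. No library pair held identical values. The members and lists were chosen with earlier results of these data known. Named subfamilies are the pair, the class III list, the 5 most like each member and the paired internal regions and LTRs. Alternatives covered pseudocount, filter, scaling, controls, the samples in the fit, the replicate block and each library left out.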

Additional observations from a re-analysis of the deposited data

Results flagged for a closer look

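The ratio of MERVL to MT2_Mm in *Pld6* KO replicate 4, at 2.18, lay far from the 4 other libraries of its group, at 3.34 to 3.62. Its gap to the nearest of them was 0.804 of the whole range of the group, which is past the 95% critical value of Dixon's test for 5 samples. MERVL was the low part of that ratio, at 34.73 RPM where the rest of the group lay between 53.31 and 76.08 RPM, while MT2_Mm, at 15.91 RPM, lay within the range of the others. Of the 7 class III relatives, 5 lay within the range of the other *Pld6* KO libraries in this library, MT-int at 63.52 RPM and MTA_Mm at 52.74 RPM among them, and 2 were the lowest of the group, ORR1A1-int at 18.66 RPM and MT2C_Mm at 0.84 RPM. MuLV-int at 17.10 RPM, RLTR4_MM-int at 29.77 RPM and RLTR4_Mm at 5.64 RPM were the lowest of the group as well. They were picked for their likeness to MERVL over the same libraries, this one included, so their low values here are no separate observation. The test was run on 10 groups of values and 1 passed, and chance alone passes about 1 in 20.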

How the results depend on the processing

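Across the alternatives, MT2_Mm was higher in *Dnmt3l* KO than in WT throughout, by 0.019 to 0.77 on the log2 scale. Its call was lost with no filter on low values (0.65, limma adjusted p = 0.051) and with rescaling by median ratios (0.019). It was also lost with the second rescaling (0.26, limma adjusted p = 0.336). With no filter more subfamilies are tested. MERVL in *Dnmt3l* KO passed with a mean of at least 5 RPM (0.69, adjusted p = 0.047), with only the compared groups in the fit (0.69, adjusted p = 0.0095), with heterozygous controls (0.74) and with WT and heterozygous controls pooled (0.72, adjusted p = 0.011). The cause of the other changes was not tested.

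In *Pld6* KO, MERVL was at -0.53 under rescaling by median ratios, which passed, and at -0.23 under the second rescaling, which did not (adjusted p = 0.463), and it changed sign with heterozygous (0.10) and pooled controls (0.045), while MT2_Mm was at -0.27 and 0.015 under the rescalings and at 0.48, past the threshold, with heterozygous controls. Under the rescalings, MERVL in heterozygous libraries went to 0.018 under each (*Dnmt3l*) and to 0.027 and 0.059 (*Pld6*), and MT2_Mm between the KO groups to -0.027 under the second. The ratio in *Dnmt3l* KO was -0.056 with heterozygous and -0.028 with pooled controls.

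Counts called are out of 114 subfamilies, except with a mean of at least 5 RPM (62 tested) and with no filter (259 tested). Over all tested subfamilies, 44 were called higher in *Dnmt3l* KO, 27 and 29 under the rescalings and 53 with each of compared groups, heterozygous controls and pooled controls. In *Pld6* KO 35 were called higher, 37 with no filter, 30 with a mean of at least 5 RPM, 52 with heterozygous and 47 with pooled controls. The 2 called lower became 4 (mean of at least 5 RPM), 9 and 6 (rescalings), 5 (compared groups), 6 (heterozygous controls) and 7 (pooled controls). In *Pld6* KO the 0 called lower became 1 (no filter), 16 and 3 (rescalings) and 1 (heterozygous controls). Of the 7 class III relatives, 2 were called higher in *Dnmt3l* KO with heterozygous and 2 with pooled controls, and in *Pld6* KO 1 with no filter, 1 with a mean of at least 5 RPM, 3 with heterozygous and 1 with pooled controls.

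The replicate numbers were not taken as pairs, and whether they pair the libraries was not tested. Same-numbered libraries correlated at 0.04 to 0.55 in the *Dnmt3l* line (median 0.13, against -0.08 for different numbers). In the *Pld6* line they correlated at -0.30 to 0.46 (median 0.02, against -0.004 for different numbers). Of 17 libraries, 8 correlated best with their own number. With a replicate block MERVL was at 0.69 in *Dnmt3l* KO (limma adjusted p = 0.025) and at 0.13 in *Pld6* KO, MT2_Mm between the KO groups was at -0.020, and 45 and 33 subfamilies were called higher in *Dnmt3l* and *Pld6* KO in place of 44 and 35.

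Leaving out each library in turn gave 0.46 to 0.93 for MERVL and 0.58 to 0.69 for MT2_Mm in *Dnmt3l* KO, and -0.20 to 0.17 for MERVL in *Pld6* KO. In heterozygous libraries it gave -0.29 to 0.18 for MERVL and -0.20 to 0.016 for MT2_Mm (*Dnmt3l*) and -0.35 to 0.062 for MERVL (*Pld6*), and between the WT groups -0.43 to 0.040 for MERVL. The log2 ratio ran from -0.18 to 0.21 in *Dnmt3l* KO, from -0.13 to 0.27 in *Dnmt3l* heterozygous, from -0.017 to 0.36 in *Pld6* heterozygous and from -0.18 to 0.22 between the WT groups. Counts called lower ran from 0 to 4 in *Dnmt3l* KO and from 0 to 1 in *Pld6* KO, and class III counts called higher from 0 to 1 in *Pld6* KO. Where 1 *Dnmt3l* WT library remains, limma assumes that it varies like the other groups. The small number of libraries limits the precision. Read depth is unknown, so counting noise could not be told apart from variation between libraries.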
